A study of Homo sapiens with 6 samples.

Results

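The 57 genes described here encode ligands, receptors, SMADs, transcription factors and feedback regulators of TGF-beta, activin, bone morphogenetic protein (BMP) and Wnt signalling. They were chosen by name, from a fixed list of symbols, out of 58721 genes in a table of RNA-seq read counts, and all 57 symbols matched a row. By pathway, 22 belong to TGF-beta and activin signalling, 13 to BMP signalling and 22 to Wnt signalling. The counts came from A549, an established human lung adenocarcinoma line grown in DMEM with 10% FBS. One group of 3 libraries was labelled as overexpressing wild-type KAT8 (WT) and the other group of 3 as overexpressing the R98W form of KAT8. KAT8, also called MOF, is a lysine acetyltransferase of histone H4, and the series title places the mutation in the Tudor-knot domain of the protein. All 6 libraries were thus labelled as overexpressing, and no library labelled as a control without overexpression was used here. The labels name no vector, clone or culture for the replicates. The p-values therefore compare the difference between groups with the variation within groups of these 6 libraries, and that variation may be technical.

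TGF-beta is secreted in a latent form held by latent TGF-beta binding proteins (LTBPs), and once freed it joins type II and type I receptor kinases that phosphorylate SMAD2 and SMAD3. BMPs use related receptors and SMAD1, SMAD5 and SMAD9, while SMAD4 is shared. SMAD6, SMAD7, SKI, SKIL and PMEPA1 restrain the signal, and the ID genes are well-known BMP targets. Wnt proteins bind Frizzled receptors with LRP5 or LRP6, which stabilises beta-catenin for use by TCF and LEF factors. AXIN2, RNF43, ZNRF3 and DKK1 are known both as Wnt target genes and as brakes on the pathway.

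Library totals ran from 90007121 to 110152936 counts. KAT8 was at 12.2 CPM (library counts scaled to a total of 1000000) in the library labelled WT replicate 1, at 194.9 and 184.1 CPM in WT replicates 2 and 3, and at 166.3, 196.3 and 235.6 CPM in the R98W libraries. In WT replicate 1 this is 6.43% of the level averaged over WT replicates 2 and 3, and calls that change without that library are named beside each result. Whether that library carried the overexpression was not tested, so the WT group may be mixed in this respect. KAT8 itself was not called, with a log2 fold change of 0.61 (adjusted p of 0.362 in edgeR), or 0.06 (0.687) without WT replicate 1. All 7 epithelial markers were detected, with KRT8 at a mean of 4441 CPM in WT and 4377 CPM in R98W. Of these 7, KRT19 and AKR1B10 rose, and EPCAM was low and fell from 7.10 to 3.92 CPM. The 8 fibroblast markers summed to 12.7 to 17.0 CPM in WT libraries and 12.4 to 14.2 CPM in R98W libraries, mostly from COL1A1, and DCN and COL1A2 were at or near 0. Of the 5 of them that were tested, THY1 fell by 82.9%, from at most 2.36 CPM in any WT library, and the others were not called. The part of this in the results on the pathway genes was not tested. The 5 endothelial markers summed to at most 0.853 CPM and the 5 immune markers to at most 0.141 CPM in any library.

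Of the 57 genes, 56 passed the filter on low counts, and 26 of them differed between R98W and WT in edgeR's quasi-likelihood test at a Benjamini-Hochberg adjusted p under 0.05 over all genes tested. In R98W cells 11 were higher and 15 were lower. The 26 make 46.4% of the tested members. Over all 20713 genes tested 34.8% were called, and over the 14237 genes whose mean reached 1 CPM 44.6% were called. The median log2 fold change of R98W over WT was 0.03 over the members and -0.01 over all tested genes, and after a loess correction for expression level the median over the members was -0.01. The changes were mostly small, with a median absolute log2 fold change of 0.26 for the higher and 0.38 for the lower members, and 4 exceeded 0.5. Those 4 were BMP2 upward and TCF7, TGFB3 and LTBP2 downward. Groups did not overlap in 30 of the 56 members, against 45.6% of all tested genes. Without R98W replicate 1 the number of called members was 16 and without R98W replicate 2 it was 17. Over all genes those fits called 5965 of 21477 and 5717 of 21549. Without the library labelled WT replicate 1 the number of called members was 30, of which 16 were higher and 14 lower. Over all genes that fit called 7212 of 21443, or 33.6%. In 13 members the call held in each of the 14 other fits run: TGFB2, LTBP1, LTBP2, LTBP4, TGFBR3, BMP2, ID2, ID3, FZD3, DKK1, AXIN2, TCF7 and TCF7L2. The matching share over all tested genes was not computed, so the 13 do not set these members apart from other genes. No called member changed sign in the 14 other fits. Of the members not called, TGFB1, TGFBR1, TGFBR2, INHBB, SMAD3, SMAD9, PMEPA1, FZD8 and LGR4 changed sign after the correction for expression level.

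**Figure D1:**
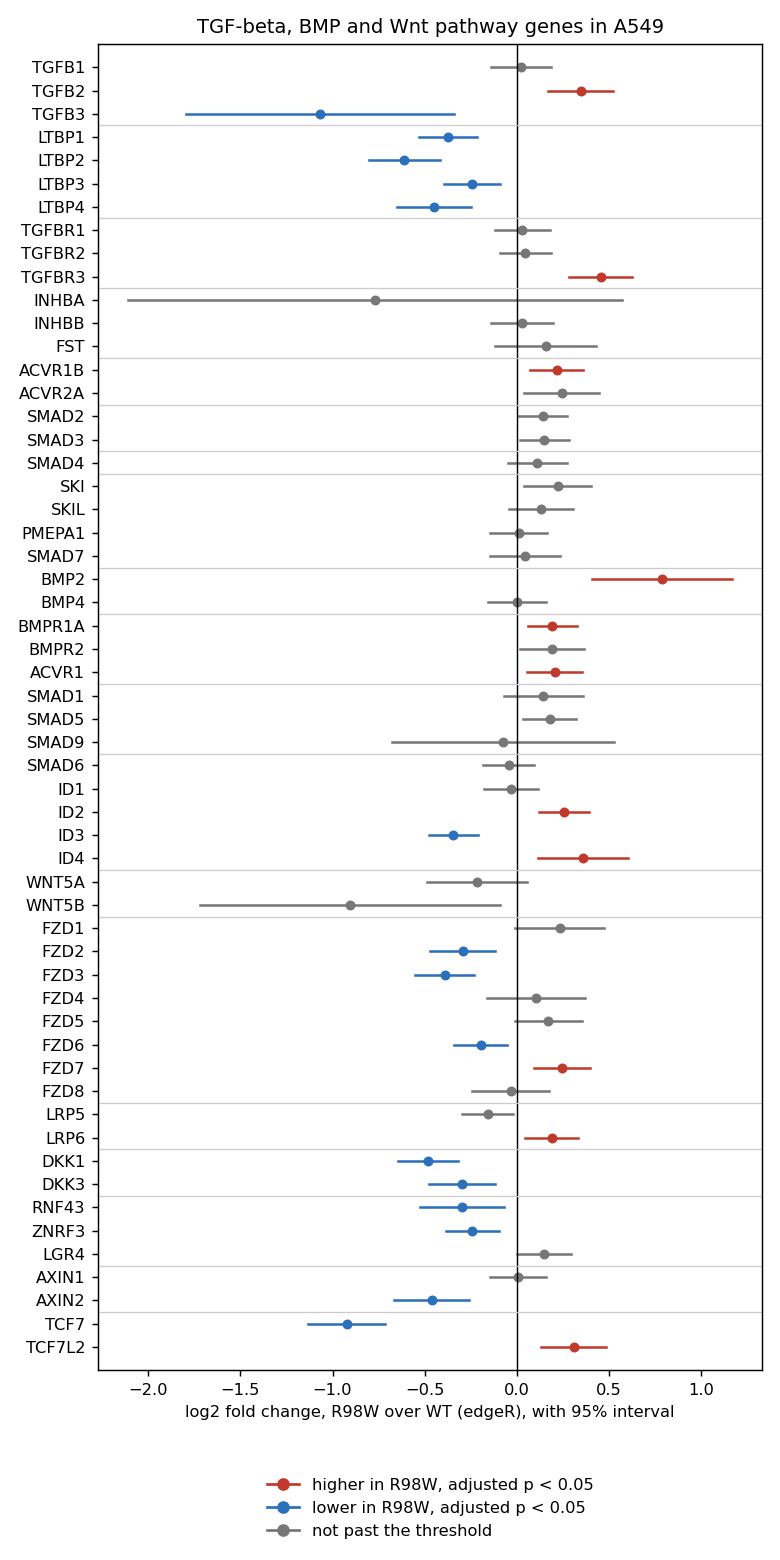
Log2 fold change of R98W over WT (x axis, edgeR, 95% interval as a line) for the 56 tested genes (y axis), with grey rules between roles; red and blue mark calls at an adjusted p under 0.05. All 4 LTBP genes lie left of 0, the BMP receptors lie right of 0, and TCF7 and TCF7L2 lie on opposite sides.

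The 3 TGF-beta ligand genes behaved differently from one another. TGFB2 (ENSG00000092969, hg38 chromosome 1, 218346235 to 218444619) was at 55.6, 43.0 and 46.9 CPM in WT replicates 1 to 3 and at 57.5, 65.9 and 61.8 CPM in R98W replicates 1 to 3. Every R98W library was above every WT library, though WT replicate 1 came within reach of R98W replicate 1. TGFB2 rose by 0.35 on the log2 scale (SE 0.09, adjusted p of 0.00342 in edgeR). TGFB3 (ENSG00000119699, chromosome 14, 75958099 to 75982991) was scarce, at 0.623, 1.06 and 1.26 CPM in WT and 0.448, 0.238 and 0.711 CPM in R98W. WT replicate 1 lay below the highest R98W library, so the groups overlapped. TGFB3 had a log2 fold change of -1.07 (SE 0.35, adjusted p of 0.0222 in edgeR). That call was lost without WT replicate 2 or 3 or R98W replicate 1 or 2, with adjusted p from 0.0518 to 0.131. TGFB1, the most abundant of the 3 per kilobase of exon, had a log2 fold change of 0.02 with a 95% interval from -0.14 to 0.19. Per kilobase of exon and in WT means, TGFB1 stood at 30.0, TGFB2 at 9.42 and TGFB3 at 0.200 CPM. The level of TGFB2 relative to TGFB1 on that scale, a ratio formed after the values were seen like the others below, was 0.314 ± 0.032 in WT and 0.395 ± 0.022 in R98W (SD, n = 3).

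All 4 genes for latent TGF-beta binding proteins were lower in R98W, against 18.5% of all tested genes and 22.1% of those whose mean reached 1 CPM that were called lower. LTBP2 (ENSG00000119681, chromosome 14, 74498170 to 74612378), a matrix protein of the family that is not known to bind latent TGF-beta well, was at 17.9, 15.3 and 16.5 CPM in WT and at 11.4, 10.5 and 10.6 CPM in R98W. The 2 sets of libraries were well apart. LTBP2 fell by 34.5%, a log2 fold change of -0.61 (SE 0.09, adjusted p of 4.36e-05 in edgeR). LTBP3, which forms complexes with latent TGF-beta, was at 96.8, 80.2 and 85.0 CPM in WT and at 73.1, 71.9 and 76.6 CPM in R98W. WT replicate 1 was the highest of the WT libraries for this gene. LTBP3 had a log2 fold change of -0.24 (SE 0.07, adjusted p of 0.0147 in edgeR), and its call was lost without WT replicate 1 (log2 fold change -0.17, adjusted p = 0.0668) and without R98W replicate 1 or 2 (0.0578 and 0.0736). LTBP1 fell by 22.9% and LTBP4 by 26.8%, with adjusted p in edgeR of 0.00065 and 0.00119 and no overlap between the groups. In WT means per kilobase of exon, LTBP3 and LTBP1 were the more abundant, at 8.48 and 7.75 CPM, and LTBP4 and LTBP2 stood at 3.14 and 1.82 CPM.

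Among the TGF-beta receptors the coreceptor moved and the kinases did not pass the threshold. TGFBR3 (ENSG00000069702, chromosome 1, 91680343 to 91906335), also called betaglycan, which presents TGF-beta to the type II receptor, was at 27.4, 23.3 and 23.7 CPM in WT and at 33.4, 36.6 and 32.0 CPM in R98W. All R98W libraries were above all WT libraries. TGFBR3 rose by 37.2%, or 0.46 on the log2 scale (SE 0.08, adjusted p of 0.000274 in edgeR). The type I receptor gene TGFBR1 had a 95% interval from -0.12 to 0.18 on the log2 scale and the type II receptor gene TGFBR2 from -0.09 to 0.19. TGFBR2 was the most abundant of the 3 per kilobase of exon, at 66.5 CPM in WT, and its level relative to TGFBR1 on that scale was 4.34 ± 0.20 in WT and 4.38 ± 0.16 in R98W (SD, n = 3).

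**Figure D2:**
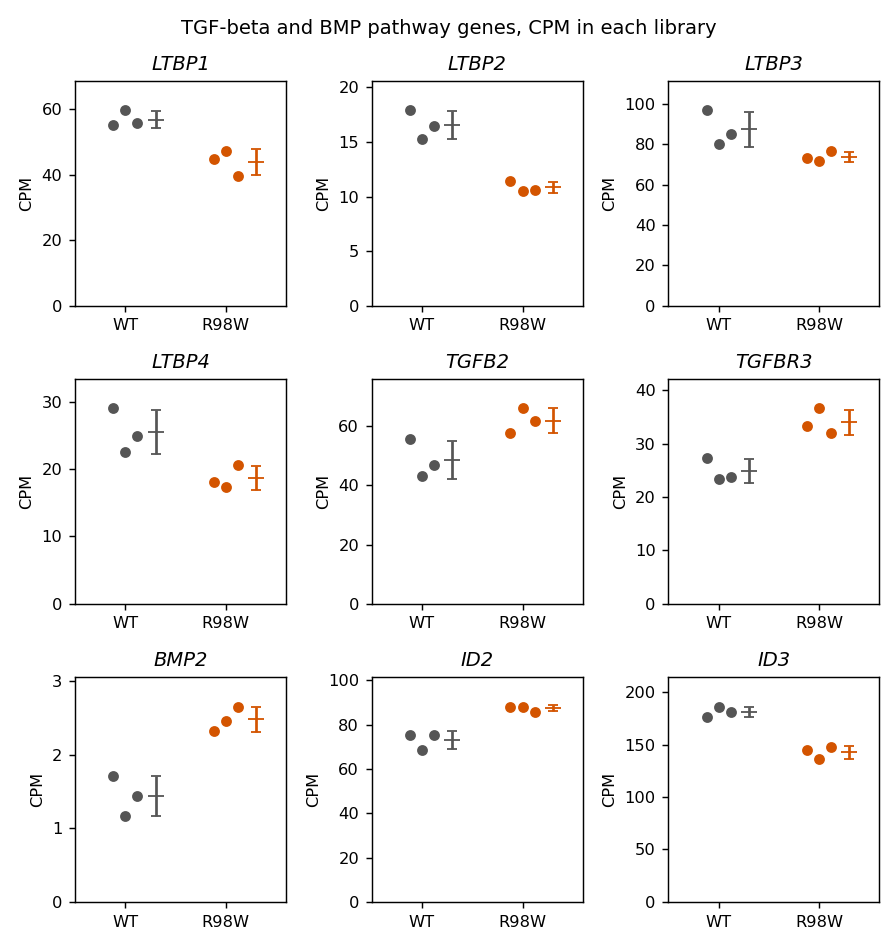
CPM (y axis, from 0) in each library (points) with mean and SD (bars, n = 3) for 9 TGF-beta and BMP pathway genes in WT (grey) and R98W (orange); points within a group run from replicate 1 to 3. The 4 LTBP genes and ID3 sit lower in R98W, whereas TGFB2, TGFBR3, BMP2 and ID2 sit higher, with no overlap between the groups in any of the 9.

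Of the 5 activin ligand, inhibitor and receptor genes, 1 receptor gene rose. Activins are dimers of inhibin beta subunits, and FST encodes follistatin, which binds and blocks them. None of INHBA, INHBB and FST passed the threshold in edgeR, DESeq2 or limma-voom, and 0 of the 3 had an unadjusted p under 0.05. INHBA was scarce, with 10, 14 and 10 counts in WT and 10, 6 and 3 counts in R98W, and its interval ran from -2.11 to 0.57 (log2 fold change -0.77, SE 0.64, adjusted p of 0.389 in edgeR). INHBB was abundant, at 103 ± 14 CPM in WT and 105 ± 1.0 CPM in R98W (SD, n = 3), with a 95% interval from -0.14 to 0.20. ACVR1B, an activin type I receptor also called ALK4, was at 51.8, 50.2 and 52.4 CPM in WT and at 63.2, 61.1 and 55.2 CPM in R98W. R98W replicate 3 was the nearest to WT, and the groups did not overlap. ACVR1B rose by 0.22 on the log2 scale (SE 0.07, adjusted p of 0.0202 in edgeR), and the call was lost without WT replicate 2 or 3 or R98W replicate 1 or 2 (0.052 to 0.113) and after the correction for expression level (0.0652). The type II receptor gene ACVR2A, with a log2 fold change of 0.24, was just outside the threshold in edgeR (adjusted p of 0.0596) and inside it in DESeq2 (0.0314) and after that correction (0.0126).

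None of the 6 receptor-activated and common SMAD genes passed the threshold in edgeR, although 3 had an unadjusted p under 0.05 (SMAD2, SMAD3 and SMAD5). DESeq2 called SMAD3 and SMAD5 (0.0424 and 0.0403), and limma-voom called SMAD5 (0.0494). SMAD3 was at 284.9, 261.0 and 264.1 CPM in WT and at 292.0, 306.8 and 300.4 CPM in R98W. The R98W libraries were all above the WT libraries, by a small margin for WT replicate 1. Its log2 fold change was 0.15 (SE 0.06, adjusted p of 0.0737 in edgeR). SMAD3 passed without WT replicate 1 (adjusted p = 0.0388), and after the correction for expression level its log2 fold change was -0.01. SMAD5, a BMP-branch SMAD, was at 102.8, 91.8 and 102.1 CPM in WT and at 118.4, 112.5 and 105.0 CPM in R98W. The groups were close but did not overlap. Its log2 fold change was 0.18 (SE 0.07, adjusted p of 0.0536 in edgeR), and it passed without WT replicate 1 (0.0492) and without R98W replicate 3 (0.0318). SMAD4 was at 48.1, 39.9 and 46.1 CPM in WT and at 49.8, 48.7 and 46.4 CPM in R98W. The groups overlapped, and the log2 fold change was 0.11 (SE 0.08, adjusted p of 0.283 in edgeR). SMAD2 and SMAD1 had 0.14 and 0.15, and SMAD9 was scarce, at 1.06 ± 0.41 CPM in WT and 1.02 ± 0.32 CPM in R98W. The level of SMAD3 relative to SMAD2 per kilobase of exon was 6.67 ± 0.41 in WT and 6.72 ± 0.34 in R98W (SD, n = 3).

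The SMAD corepressor and feedback genes of the TGF-beta branch gave 0 calls among 4 in edgeR, with 1 unadjusted p under 0.05, that of SKI, which DESeq2 and limma-voom called (0.0477 and 0.048). SKI, a corepressor that binds SMADs, was at 44.0, 33.8 and 38.1 CPM in WT and at 42.2, 44.9 and 48.0 CPM in R98W. WT replicate 1 lay within the R98W range. The log2 fold change of SKI was 0.22 (SE 0.09, adjusted p of 0.054 in edgeR), and without WT replicate 1 it was 0.32 (adjusted p = 0.00681). The corepressor gene SKIL had a 95% interval from -0.04 to 0.31. The inhibitory SMAD7 and the membrane protein gene PMEPA1, both induced by TGF-beta in many cells, had intervals from -0.14 to 0.24 and from -0.14 to 0.16. Over the 22 TGF-beta and activin members 3 were higher and 5 lower. That is 36.4% called, against 34.8% of all tested genes and 44.6% of those whose mean reached 1 CPM. Leaving out WT replicate 1 gave 5 higher and 4 lower. Without R98W replicate 2, which removes the calls of TGFB3, LTBP3 and ACVR1B, 5 calls were left in this pathway. Over all genes those fits called 7212 of 21443 and 5717 of 21549.

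In the BMP pathway 5 of 13 members were higher and 1 lower, and the median log2 fold change was 0.18. Of tested genes at a mean of 1 CPM or more, 22.5% were higher and 22.1% lower. After the correction for expression level 3 BMP members were higher and 1 lower, with a median of 0.07. BMP2 (ENSG00000125845, chromosome 20, 6767664 to 6780280), a secreted ligand, had the largest rise of all members. It was at 1.71, 1.16 and 1.44 CPM in WT and at 2.32, 2.46 and 2.65 CPM in R98W. All R98W libraries were well above the WT range, at a low level throughout. BMP2 rose by 72.9%, or 0.79 on the log2 scale (SE 0.18, adjusted p of 0.00216 in edgeR). BMP4, the other ligand, was more abundant, at 8.36 against 0.399 CPM per kilobase of exon in WT, and its log2 fold change was 0.00 with an interval from -0.16 to 0.16.

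The 3 BMP receptor genes had like positive values, of which 2 passed the threshold and did so narrowly. BMPR1A, a type I receptor also called ALK3, was at 64.3, 63.2 and 66.7 CPM in WT and at 72.8, 75.9 and 73.5 CPM in R98W. The groups did not overlap. BMPR1A rose by 0.19 on the log2 scale (SE 0.06, adjusted p of 0.0236 in edgeR). Its call was lost without WT replicate 1, 2 or 3 or R98W replicate 1 or 2, with adjusted p from 0.0536 to 0.102, and after the correction for expression level (0.137). ACVR1, the type I receptor also called ALK2, rose by 0.21 (adjusted p of 0.0317 in edgeR), and its call was lost without WT replicate 2 or 3 or R98W replicate 1 or 2 (0.0638 to 0.16) and after that correction (0.0537). The type II receptor gene BMPR2 had 0.19 and an adjusted p of 0.0801, and 0.013 without WT replicate 1, and it also passed without R98W replicate 3. The pathway's count of 6 calls was 3 without WT replicate 2, 3 without R98W replicate 1 and 3 without R98W replicate 2. Over all genes those fits called 6370 of 21277, 5965 of 21477 and 5717 of 21549.

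The ID genes, which encode helix-loop-helix proteins that block other such factors from binding DNA, moved in both directions. ID3 (ENSG00000117318, chromosome 1, 23557918 to 23559794) was at 176.3, 186.3 and 181.0 CPM in WT and at 145.1, 135.9 and 147.4 CPM in R98W. The groups were far apart relative to their spread. ID3 fell by 21.2%, a log2 fold change of -0.34 (SE 0.06, adjusted p of 0.000343 in edgeR). ID2 rose by 19.6% (adjusted p of 0.0047 in edgeR), from 73.0 ± 3.9 to 87.3 ± 1.4 CPM (SD, n = 3). ID4 rose by 28.3% (adjusted p of 0.0215 in edgeR), and it lost its call without WT replicate 2, R98W replicate 1 or R98W replicate 2 (0.0752 to 0.102). ID1, the most abundant of the 4 per kilobase of exon at 160 CPM in WT, had an interval from -0.17 to 0.11, and the inhibitory SMAD6 one from -0.18 to 0.10. The level of ID2 relative to ID3 per kilobase of exon was 0.348, 0.299 and 0.340 in WT and 0.495, 0.528 and 0.474 in R98W. The groups could not overlap in this ratio, since every R98W library was above the WT libraries for ID2 and below them for ID3.

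**Figure D3:**
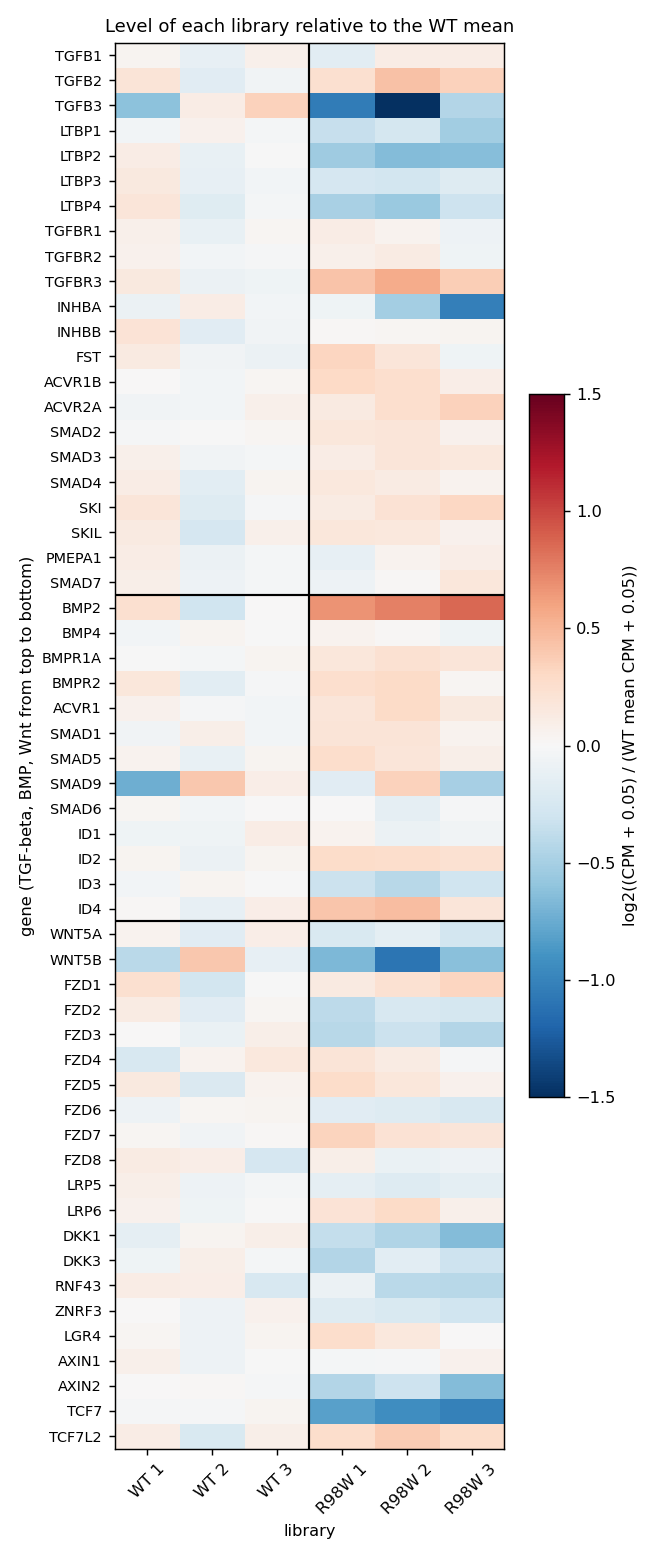
Colour gives log2 of the CPM of each library over the WT mean, with 0.05 CPM added to each, for the 56 tested genes (rows, by pathway) in the 6 libraries (columns); colours end at 1.5 either way. TCF7, the LTBP genes, DKK1 and AXIN2 are blue in all 3 R98W libraries, BMP2 and TGFBR3 are red in all 3, and scarce genes such as TGFB3, SMAD9 and WNT5B vary among replicates.

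In the Wnt pathway falls outnumbered rises, with 9 of 21 tested members lower and 3 higher and a median log2 fold change of -0.20. For tested genes whose mean reached 1 CPM, 22.1% were lower and 22.5% higher. LEF1, a transcription factor gene of the pathway, did not pass the filter, with at most 4 counts in any library. Without R98W replicate 1 the number of called Wnt members was 7, of which 6 were lower. Without the library labelled WT replicate 1 it was 14, of which 9 were lower. Over all genes those fits called 5965 of 21477 and 7212 of 21443.

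The 2 tested TCF genes, whose proteins carry beta-catenin to DNA, moved in opposite directions. TCF7 (ENSG00000081059, chromosome 5, 134114711 to 134151865), also called TCF1, was at 12.8, 12.8 and 13.3 CPM in WT and at 7.34, 6.76 and 6.40 CPM in R98W. The highest R98W library was well under the lowest WT library. TCF7 fell by 47.3%, a log2 fold change of -0.92 (SE 0.10, adjusted p of 1.04e-06 in edgeR), the smallest p of all 56 tested members. TCF7L2, also called TCF4, rose by 24.0% (adjusted p of 0.00729 in edgeR), from 39.2 ± 5.0 to 48.6 ± 2.3 CPM (SD, n = 3). Per kilobase of exon the level of TCF7L2 relative to TCF7 was 4.96, 3.90 and 4.69 in WT and 9.55, 11.3 and 11.1 in R98W, so its mean went from 4.52 ± 0.55 to 10.7 ± 0.97. The ratios of the 2 groups could not overlap, since neither gene overlapped and the 2 genes moved in opposite directions.

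AXIN2 (ENSG00000168646, chromosome 17, 65528563 to 65561647), a scaffold of the beta-catenin destruction complex and a widely used Wnt target gene, was at 15.7, 15.8 and 15.4 CPM in WT and at 11.5, 12.6 and 9.97 CPM in R98W. Every R98W library was under every WT library. AXIN2 fell by 27.4%, a log2 fold change of -0.46 (SE 0.10, adjusted p of 0.000955 in edgeR). AXIN1, the constitutive paralogue, had 0.01 with an interval from -0.15 to 0.16. ZNRF3, a membrane ubiquitin ligase that removes Frizzled receptors, was at 56.2, 53.1 and 58.2 CPM in WT and at 48.8, 47.6 and 45.5 CPM in R98W. The groups did not overlap. ZNRF3 had a log2 fold change of -0.24 (SE 0.07, adjusted p of 0.00986 in edgeR), which missed the threshold without WT replicate 3 (0.0516).

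RNF43, the paralogue of ZNRF3, was at 18.6, 18.4 and 14.5 CPM in WT and at 16.1, 13.0 and 12.9 CPM in R98W, and the groups overlapped through WT replicate 3. Its log2 fold change was -0.30 (SE 0.11, adjusted p of 0.0394 in edgeR), and the call was lost without WT replicate 1 or 2 or R98W replicate 2 or 3 (0.104 to 0.161) and after the correction for expression level (0.108). Exon bases shared with other tested genes, added gene by gene, come to 77.9% of the annotated RNF43 exon bases. Bases shared with more than 1 of those genes count each time, so the share covered may be smaller. The RNF43 counts are therefore uncertain. LGR4, a receptor for R-spondins that protects Frizzled proteins from these ligases, had a log2 fold change of 0.15 (adjusted p of 0.114 in edgeR). LGR4 passed without R98W replicate 3, and after the correction for expression level its log2 fold change was -0.03.

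Both Dickkopf genes fell. DKK1 (ENSG00000107984, chromosome 10, 52314296 to 52318042), a secreted inhibitor that binds LRP5 and LRP6, was at 368.2, 415.2 and 430.8 CPM in WT and at 315.2, 296.7 and 258.3 CPM in R98W. The groups did not overlap, and the spread was wide within each. DKK1 fell by 28.3%, a log2 fold change of -0.48 (SE 0.08, adjusted p of 8.66e-05 in edgeR). It was the most abundant of the 57 genes per kilobase of exon in WT, at 183.5 CPM. Of its exon bases, 9.6% lie in PRKG1-AS1 on the opposite strand. DKK3, a divergent family member, fell by 0.30 on the log2 scale (adjusted p of 0.0102 in edgeR), and its call ended without R98W replicate 1 (0.0805).

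**Figure D4:**
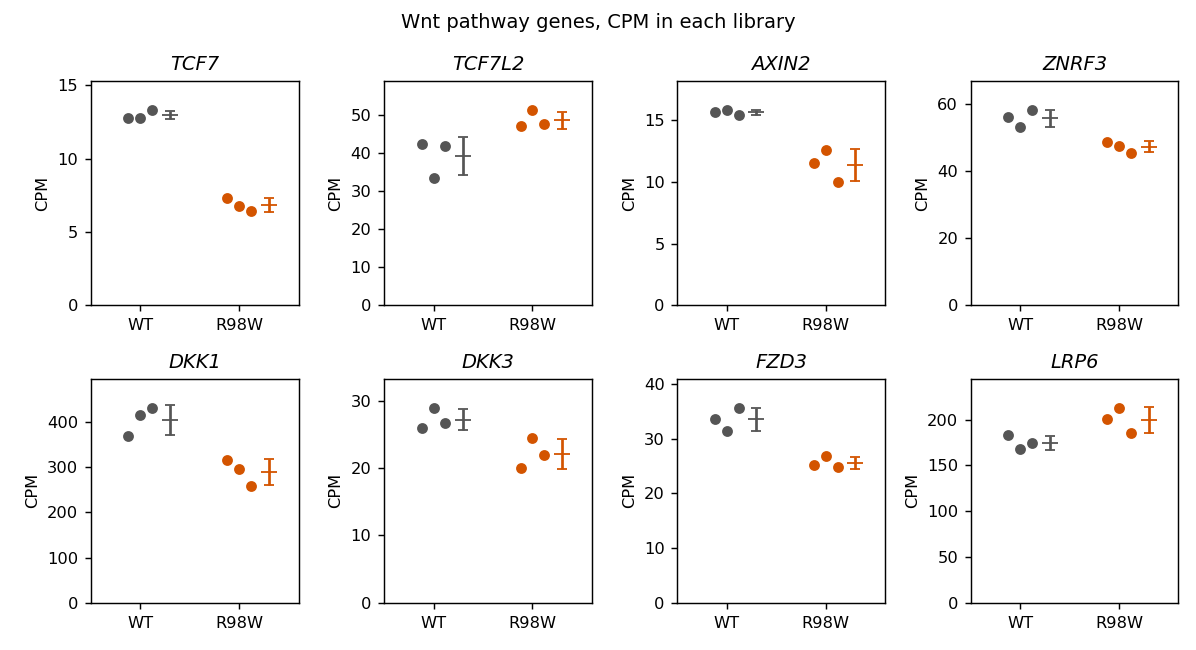
CPM (y axis, from 0) in each library (points) with mean and SD (bars, n = 3) for 8 Wnt pathway genes in WT (grey) and R98W (orange); points within a group run from replicate 1 to 3. TCF7, AXIN2, ZNRF3, DKK1, DKK3 and FZD3 sit lower in R98W and TCF7L2 and LRP6 higher, without overlap between the groups.

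The bases upstream of 3 of these start sites are shown because DKK1 and TCF7 fell while TCF7L2 rose. The genes were thus picked by their values, and each window shown holds no exon bases of its own gene. The TCF7 window lies inside the annotated gene. Counts are per gene, so which start gave the reads was not tested. They are the 250 bases before a RefSeq start on GRCh38.p14, read 5′ to 3′ on the gene's strand: chr10:52314031-52314280 for DKK1, chr5:134123368-134123617 for the second of 2 TCF7 starts and chr10:112949997-112950246 for the first of 3 TCF7L2 starts. All 3 genes are on the plus strand, and all 250 bases of the DKK1 window also lie in an exon of PRKG1-AS1 on the other strand. Capitals mark CTTTGA or CTTTGT, the core letters of TCF and LEF sites, and GGCGCC, a motif bound by BMP-branch SMADs, on either strand.
DKK1: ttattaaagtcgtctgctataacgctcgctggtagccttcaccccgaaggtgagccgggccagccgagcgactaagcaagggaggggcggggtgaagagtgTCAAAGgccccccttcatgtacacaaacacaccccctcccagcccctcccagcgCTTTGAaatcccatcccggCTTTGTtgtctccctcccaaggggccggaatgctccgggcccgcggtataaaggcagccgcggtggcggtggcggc
TCF7: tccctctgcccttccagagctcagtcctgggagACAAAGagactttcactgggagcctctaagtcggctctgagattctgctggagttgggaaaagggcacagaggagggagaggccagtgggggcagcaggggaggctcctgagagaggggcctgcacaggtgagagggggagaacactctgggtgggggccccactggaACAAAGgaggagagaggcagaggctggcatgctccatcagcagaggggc
TCF7L2: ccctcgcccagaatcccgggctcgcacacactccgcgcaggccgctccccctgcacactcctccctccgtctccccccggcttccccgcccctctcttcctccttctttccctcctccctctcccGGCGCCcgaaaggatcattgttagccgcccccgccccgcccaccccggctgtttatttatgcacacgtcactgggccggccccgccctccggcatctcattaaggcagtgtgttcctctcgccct
The DKK1 window holds CTTTGA on each strand and CTTTGT once, the TCF7 window holds CTTTGT on the reverse strand 2 times, and the TCF7L2 window holds GGCGCC once. Over all 35116 start windows of this length, 11.2% hold CTTTGA, 13.7% hold CTTTGT and 16.4% hold GGCGCC. Of the 57 genes, 47 had a start in the table. Of their 85 start windows, 6 hold CTTTGA, 15 hold CTTTGT and 21 hold GGCGCC. The matches describe letters in these windows, and no binding was measured. A relation between these letters and the direction of change was not tested.

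Of the 8 Frizzled receptor genes, 3 fell and 1 rose. That is 50% called, against 34.8% of all tested genes and 44.6% of those whose mean reached 1 CPM. FZD3 was at 33.6, 31.4 and 35.6 CPM in WT and at 25.1, 26.9 and 24.8 CPM in R98W. All R98W libraries were under the WT range. FZD3 fell by 23.7%, a log2 fold change of -0.39 (SE 0.08, adjusted p of 0.000575 in edgeR). FZD2 fell by 18.4% (adjusted p of 0.0113 in edgeR), a call that ended without R98W replicate 1 (0.0701). FZD6 fell by 12.7% (adjusted p of 0.0302 in edgeR), a call that ended without WT replicate 3 or any one R98W replicate (0.065 to 0.104) and with no filter (0.051). FZD7 rose by 18.7% (adjusted p of 0.0118 in edgeR), with 0.0809 without R98W replicate 1. The log2 fold changes of FZD1, FZD4, FZD5 and FZD8, which were not called, ran from -0.03 to 0.23, and FZD1 and FZD5 passed, higher in R98W, without WT replicate 1 (0.0186 and 0.0485). FZD1 also passed after the correction for expression level (0.0452). Of the FZD4 exon bases, 18.9% lie in PRSS23 on the opposite strand, so its counts are uncertain. In WT means per kilobase of exon FZD2 and FZD6 led, at 13.4 and 13.2 CPM.

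The coreceptor genes LRP5 and LRP6, which encode similar proteins, had opposite signs. LRP6 was at 182.9, 167.7 and 174.0 CPM in WT and at 200.8, 212.6 and 185.1 CPM in R98W. R98W replicate 3 was just above WT replicate 1. LRP6 rose by 0.19 on the log2 scale (SE 0.07, adjusted p of 0.0366 in edgeR), but the call was lost without WT replicate 2 or 3 or R98W replicate 1 or 2 (0.0969 to 0.203) and with upper quartile scaling (0.0512) and after the correction for expression level, where its log2 fold change was 0.05 (0.612). LRP5 had -0.16 (adjusted p of 0.0744 in edgeR), with 0.0043 after that correction, and it also passed without WT replicate 2. Per kilobase of exon the level of LRP6 relative to LRP5 was 1.01 ± 0.02 in WT and 1.28 ± 0.11 in R98W (SD, n = 3).

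Both Wnt ligand genes among the members, WNT5A and WNT5B, were low and not called in edgeR, DESeq2 or limma-voom. Of the 2, WNT5B had an unadjusted p under 0.05. WNT5B was at 0.331, 0.617 and 0.411 CPM in WT and at 0.265, 0.186 and 0.275 CPM in R98W. The R98W libraries were all under the WT libraries, and WT replicate 2 stood above the other WT libraries. Its log2 fold change was -0.91 (SE 0.39, adjusted p of 0.0788 in edgeR), with 0.0483 without WT replicate 1. WNT5A, a ligand known for signalling without beta-catenin, was at 4.69 ± 0.45 CPM in WT and 4.03 ± 0.18 CPM in R98W (SD, n = 3), with an interval from -0.49 to 0.06 on the log2 scale. Outside the members, WNT7B was at a mean of 129 CPM in WT and was not called in edgeR (adjusted p of 0.0618). It passed, lower in R98W, after the correction for expression level (0.00323). WNT2B, WNT3 and WNT10B were called lower in edgeR and WNT9A higher. The WNT2B call ended after that correction (0.0934) and without WT replicate 2 or 3 or R98W replicate 1 or 3 (0.0794 to 0.181). The WNT2B groups overlapped, and 21.2% of its exon bases lie in ST7L on the opposite strand.

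A further 139 genes of the same pathways were listed beside the members, and 108 passed the filter, of which 23 were higher and 33 lower. Together 51.9% of them were called, against 34.8% of all tested genes and 44.6% of those whose mean reached 1 CPM, with a median log2 fold change of -0.10. By direction the share over all tested genes was 16.2% higher and 18.5% lower. Of 29 tested TGF-beta and activin genes 7 were higher and 8 lower, and leaving out WT replicate 1 gave 9 higher and 6 lower. FURIN, a protease that cleaves TGF-beta precursors, was at 69.6, 62.5 and 66.9 CPM in WT and at 38.3, 37.7 and 36.6 CPM in R98W. The groups were widely separated, and FURIN fell by 43.4%, a log2 fold change of -0.82 (SE 0.07, adjusted p of 4.76e-08 in edgeR). The ligand gene GDF11 and the corepressor gene TGIF2 fell by 0.76 and 1.03 on the log2 scale. ITGAV, the integrin subunit of the receptors that release TGF-beta from its latent complex, was at 391.3, 301.9 and 353.7 CPM in WT and at 552.4, 549.5 and 531.9 CPM in R98W. Each R98W library was above the WT range, and ITGAV rose by 0.64 (SE 0.08, adjusted p of 4.04e-06 in edgeR). The stress-induced ligand gene GDF15 rose by 0.45 and STRAP, which encodes a TGF-beta receptor binding protein, by 0.40. All 6 were also called without the library labelled WT replicate 1.

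Of 20 tested BMP genes 5 were higher and 3 lower. That is 40% called, against 34.8% of all tested genes and 44.6% of those whose mean reached 1 CPM. Leaving out WT replicate 1 gave 3 higher and 3 lower. RGMA, which encodes a BMP coreceptor, rose by 1.44 on the log2 scale (SE 0.20, adjusted p of 1.72e-05 in edgeR), at levels of 0.703 to 2.22 CPM. The ligand gene BMP7 rose by 0.69. BMP1, a metalloprotease despite its name, rose by 0.25 (adjusted p of 0.0202 in edgeR), a call that ended without WT replicate 2 or 3 or R98W replicate 3 (0.0666 to 0.146) and after the correction for expression level (0.0694). ACVRL1, the type I receptor gene also called ALK1, had 43, 57 and 40 counts in WT and 2, 5 and 6 counts in R98W, with a log2 fold change of -3.35 (SE 0.51, adjusted p of 4.59e-05 in edgeR). It was scarce in every library. BMP8B fell by 0.65 and BMPER, which encodes a BMP-binding protein, by 0.69, and the latter call ended without R98W replicate 2 (0.051).

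Of 59 tested Wnt genes 11 were higher and 22 lower, with a median log2 fold change of -0.18. That is 55.9% called, against 34.8% of all tested genes and 44.6% of those whose mean reached 1 CPM. VANGL2, a membrane protein gene of planar cell polarity, was at 8.68, 10.1 and 10.7 CPM in WT and at 2.69, 2.55 and 2.50 CPM in R98W. No R98W library came near the WT range, and VANGL2 had a log2 fold change of -1.93 (SE 0.12, adjusted p of 3.01e-09 in edgeR). KREMEN1, which encodes a receptor for Dickkopf proteins, was at 17.1, 21.1 and 20.6 CPM in WT and at 10.4, 10.1 and 9.56 CPM in R98W. It fell by 0.97 (SE 0.10, adjusted p of 3.68e-07 in edgeR). The polarity cadherin gene CELSR2 fell by 0.61. SFRP4, a secreted Frizzled-related inhibitor, rose by 0.44, the Wnt receptor gene ROR1 by 0.41 and the kinase gene GSK3B of the destruction complex by 0.37. These 6 Wnt genes were called without the library labelled WT replicate 1 as well. Chosen after their values were seen, PORCN and WLS, which acylate and carry Wnt proteins for secretion, had log2 fold changes of -0.97 and -0.76. The feedback inhibitor gene NKD1, chosen likewise, had -0.86, and each passed the edgeR threshold with and without WT replicate 1. This choice held falls only. Called rises outside it included PRICKLE1 at 0.57, TLE4 at 0.33 and the beta-catenin gene CTNNB1 at 0.19 (adjusted p of 0.0211 in edgeR). The CTNNB1 call ended after the correction for expression level (0.856) and without WT replicate 3 or R98W replicate 2 (0.107 and 0.0854).

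**Figure D5:**
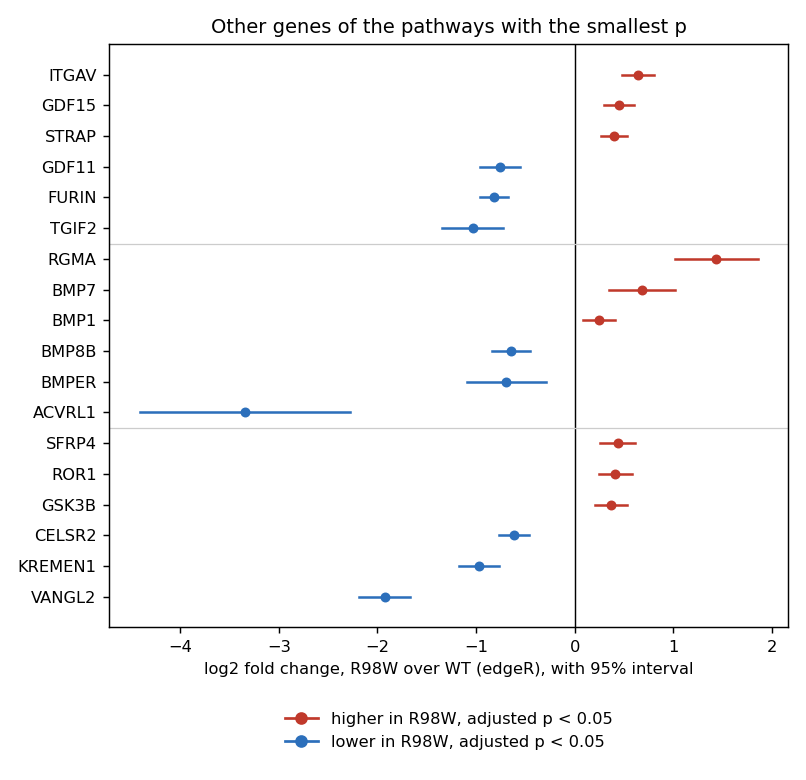
Log2 fold change of R98W over WT (x axis, edgeR, 95% interval as a line) for the 18 other pathway genes with the smallest p in each direction (y axis; TGF-beta, BMP and Wnt from top to bottom). VANGL2 and ACVRL1 show the largest falls and RGMA the largest rise among them.

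Expression level and length are given without a test. The members were listed by name, but with earlier results of these data known. The median level was 43.9 CPM for the 11 higher members, 25.8 CPM for the 15 lower ones and 44.2 CPM for the 30 not called. Their median exon lengths were 5151, 6968 and 6524 bases. Within the WT group, WT replicate 1 was the highest library for 30 of the 56 tested members and WT replicate 2 the lowest for 35. Within the R98W group, replicate 3 was the lowest for 31. These positions within groups move with single libraries, and their part in the results was not tested beyond leaving each library out.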

How the data were processed

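As deposited, the 6 libraries have whole-number read counts for each gene, without normalisation. Per the submitters' processing notes the tools were HISAT2 2.1.0, HTSeq 0.11.3 and CASAVA 1.8 and the build hg38, with no roles stated. Annotation, strand setting and read filters were not given in the sources used. Reads from overlapping genes on opposite strands therefore cannot be told apart. All 58721 rows matched GENCODE release 29 by identifier, which gave positions and exon lengths on hg38.

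All genes entered 1 fit in edgeR 4.0.16 (R 4.3.3): filterByExpr (minimum count 10, minimum total 15), TMM scaling, and the quasi-likelihood test of R98W against WT in 6 libraries without covariates, with Benjamini-Hochberg adjustment at 0.05. The SE came from the test statistic and 95% intervals from its degrees of freedom. CPM used TMM-scaled totals, and levels were compared between genes only per kilobase of the union of annotated exons. The biological coefficient of variation was 10%. Groups and replicate numbers came from sample titles. The members, the list of other genes and the alternatives were chosen with earlier results of these data known.

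Genes given in every library were called members with an absolute log2 fold change of at least 0.5, the member with the smallest p in each role, and members whose call ended without WT replicate 1. Of the other genes, the 3 rises and 3 falls with the smallest p per pathway were named. Alternatives were other scalings and filters, DESeq2 1.42.0, limma-voom (limma 3.58.1), a replicate block, each library left out, a threshold of 0.01 and a per-library loess correction for expression level. The pipeline was tested on simulated data. Promoter bases came from RefSeq on GRCh38.p14.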

Additional observations from a re-analysis of the deposited data

How the results depend on the processing

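Other scalings and filters, DESeq2, limma-voom and the correction for expression level gave 24 to 30 called members against 26. At a threshold of 0.01 the calls were 4763 over all genes, 14 members, 5 TGF-beta, 3 BMP and 6 Wnt members, and 37 other pathway genes, against 7203, 26, 8, 6, 12 and 56. Leaving out 1 library gave 5400 to 7212 calls over all genes, 16 to 30 members, 5 to 9 TGF-beta, 3 to 8 BMP and 7 to 14 Wnt members, and 41 to 54 other pathway genes. Those fits have fewer samples, and the cause of each change was not tested. After the correction for expression level the log2 fold change of SMAD3, not called before, was -0.014 in place of 0.151. For single named genes and KAT8, 517 of the values under an alternative kept their direction and side of the threshold, 36 lost and 17 gained a call, and 1 changed sign.

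In the labels, samples of the same replicate number share only that number. The correlations of their deviations from the group means were 0.006, -0.039 and -0.037 for replicates 1 to 3. Not every library correlated best with its own number, and whether a preparation was shared was not tested. With the replicate block 24 members were called, 10 higher and 14 lower, with 9 TGF-beta, 5 BMP and 10 Wnt members, 53 other pathway genes and 6883 genes over all. ACVR1, FZD6 and LRP6 were no longer called (0.0533, 0.0573 and 0.0541), and SKI was called (0.0398). LEF1 had too few counts to be tested, and the intervals of INHBA and WNT5B were wide, from -2.11 to 0.57 and from -1.72 to -0.09 on the log2 scale.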
